A study of Equisetum hyemale and Pteris vittata and Marchantia polymorpha with 22 samples.

Results

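The 4 libraries described here came from shoots of *Pteris vittata*, a leptosporangiate fern, and were chosen as all libraries of this species among the 22 libraries of the series. The study asked how plants from different land plant divisions respond to low oxygen, and sequenced mRNA of 5 species. The plants were multiplied in vitro by cutting shoots, on MS medium at reduced strength with sucrose. They were then kept in darkness for 8 h, either in air (21% O2, replicates 1 and 3) or under hypoxia (1% O2, replicates 1 and 3), and each replicate pooled a few young shoots. All plants were therefore in the dark, so the comparison is between oxygen levels only. No genome served as reference. The authors assembled the transcriptome de novo with Trinity, which places related transcripts in 1 gene, and deposited levels for 73725 transcripts. Levels were CPM, read counts relative to library size, and were summed here over the transcripts of a gene, which gave 36196 Trinity genes, of which 14413 (39.8%) held more than 1 transcript and the largest held 31.

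In flowering plants, low oxygen is sensed through the ethylene response factors of group VII (ERFVII). Plant cysteine oxidases (PCOs) use oxygen to oxidise the cysteine at the start of these proteins, and the N-degron pathway then degrades them. When oxygen is scarce the factors persist and induce genes for sucrose cleavage, glycolysis and fermentation, in which pyruvate is turned into ethanol or lactate so that glycolysis can go on. Functions in the fern were read from the best *Arabidopsis thaliana* hit that the deposited table gives for a transcript. Such a hit with an E-value of 1e-05 or less existed for 11293 genes (31.2%), which held 61.9% of all CPM, and 89.4% of these hits had a description. A hit names the most similar *Arabidopsis* protein and does not establish orthology. Trinity identifiers are written without their common prefix.

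The deposited values corresponded to 17.1 to 21.2 M reads per library, and 1 read was worth 0.0461 to 0.0592 CPM. Transcripts of photosystems and light harvesting, which mark green shoots, summed to 30741 and 26364 CPM in air (replicates 1 and 3) and 24012 and 31002 CPM under hypoxia, so green tissue was sequenced in all 4 libraries and this sum did not separate the groups. The 2 hypoxia libraries resembled each other more than the 2 air libraries did. Over the 18286 genes with a mean of at least 5 CPM, 35 genes lay more than 1 log2 unit apart between the hypoxia libraries and 244 between the air libraries. Air replicate 1 also stood nearer to hypoxia than air replicate 3 did, with 355 and 213 genes more than 1 log2 unit from hypoxia replicates 1 and 3, against 779 and 667 for air replicate 3. The value without air replicate 3 is therefore given for the named genes whose log2FC it moved most. Since these are bulk shoots, a change in the share of a cell type and a change in RNA per cell cannot be told apart.

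Hypoxia was compared with air by limma on log2(CPM + 1), and the log2 fold change (log2FC) is the difference of mean log2(CPM + 1), hypoxia minus air, which understates the change of genes with low levels. With a log2FC beyond 1 in size and a false discovery rate (FDR) of at most 0.01, 6 genes were upregulated (0.0166% of 36196) and 2 were downregulated (0.00553%), and all 8 had the same smallest FDR of 0.010. None of these 8 had an *Arabidopsis* hit. At an FDR of 0.05 or less, 109 genes were upregulated (0.301%) and 19 were downregulated (0.0525%). Hereafter upregulated and downregulated refer to this FDR of 0.05 and a log2FC beyond 1. Where 0 genes are said to have changed, 0 passed both thresholds. With 2 libraries per group this does not show that their levels were equal. The log2FC of the upregulated genes ran from 1.01 to 3.58 with a median of 1.53, and that of the downregulated genes from -2.03 to -1.01 with a median of -1.24, while the median over all genes was -0.01. A hit existed for 35 upregulated (32.1%) and 5 downregulated genes (26.3%), shares close to the 31.2% of all genes.

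A count that needs no estimate of variance took genes whose hypoxia libraries both lay on the same side of both air libraries and whose log2FC was beyond 1. It gave 525 higher genes (1.45%) and 66 lower genes (0.182%), of which 158 and 16 had a hit. With 2 libraries against 2, an exact permutation test of a single gene cannot give a two-sided p below 0.33, so this count describes the libraries. Without a minimum change, 22.5% of all genes lay higher and 24.4% lower without overlap, and counts of list members given below without a minimum change are to be read against these shares. In 476 of the 525 higher genes (90.7%) air replicate 1 lay above air replicate 3, where 52.5% of all genes did. Hypoxia replicate 1 lay above hypoxia replicate 3 in 417 of them (79.4%), where 49.5% of all genes did, so replicate 1 was the higher library of both groups in most of these genes. Without air replicate 3, 308 of these 525 genes still had a log2FC above 1, and without air replicate 1 507 did. Of the 66 lower genes, 28 remained beyond -1 without air replicate 3 and 61 without air replicate 1. Of the 109 upregulated and 19 downregulated genes, 107 and 16 stayed beyond 1 log2 unit without air replicate 3. These genes were called on a small spread between replicates, which limits how far leaving out 1 library can move them, and limma with 1 air library called 0 of them.

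**Figure D1:**
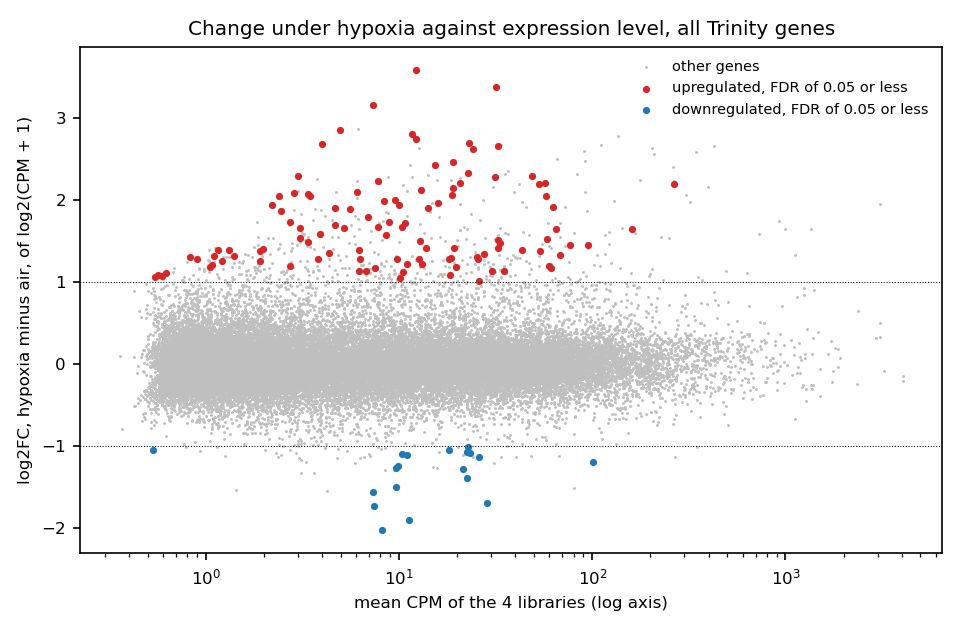
Each point is 1 of 36196 Trinity genes, with the mean CPM of the 4 libraries on a log axis and the log2FC (hypoxia minus air) on the vertical axis, and dotted lines at 1 and -1. The 109 genes in red were upregulated and the 19 in blue downregulated at an FDR of 0.05 or less, and at high levels few genes lay beyond the dotted lines.

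Among the transcription factors at the centre of oxygen sensing, 1 of 5 genes with an ERFVII best hit was upregulated. DN34443_c0_g1, whose hit is related to AP2 2 (AT3G14230), an ERFVII of *Arabidopsis*, had 113 and 77.6 CPM in air and 474 and 390 CPM under hypoxia. Both hypoxia libraries lay far above both air libraries. Its log2FC was 2.19 (SE 0.20, FDR 0.021), and 1.92 without air replicate 3. A second gene with the same hit, DN34003_c0_g2, had 26.4 and 23.6 CPM in air and 38.2 and 30.2 CPM under hypoxia (log2FC 0.43, FDR 0.25). The libraries of this gene did not overlap, but the difference did not pass the test. DN33121_c0_g1 (hit AT2G47520) and DN33763_c0_g1 (hit AT3G16770) had log2FC of -0.13 and 0.04, and DN3524_c0_g1, at 0.507 to 1.12 CPM, had 0.30.

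Of the enzymes that act on these factors, 0 were upregulated. PCO hits, described in the tables as DUF1637 proteins or a 2-aminoethanethiol dioxygenase, were found for 3 genes, of which 0 were upregulated. DN29629_c0_g1 (hit AT2G42670) had 52.8 and 36.1 CPM in air and 95.2 and 77.4 CPM under hypoxia, a log2FC of 0.96 (SE 0.19, FDR 0.091). DN27652_c0_g1 (hit AT5G15120) had 67.3 and 45.3 CPM in air and 96.6 and 76.8 CPM under hypoxia, a log2FC of 0.63 (FDR 0.23). For both genes every hypoxia library lay above every air library, and the log2FC fell to 0.69 and 0.35 without air replicate 3. The libraries of DN28040_c0_g1, with the 2-aminoethanethiol dioxygenase hit, overlapped (log2FC 0.06). Of 6 genes for later steps of the N-degron pathway, 0 changed, and their log2FC ran from -0.18 to 0.31. Among them were hits of arginine-tRNA protein transferases, which add arginine to the oxidised protein, and of proteolysis 6, the ubiquitin ligase that recognises it.

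Sucrose enters glycolysis through sucrose synthase, which spares energy by making UDP-glucose, or through invertase, which hydrolyses sucrose. Of 2 genes with a sucrose synthase hit, neither was upregulated at the gene level. DN34786_c0_g1 (sucrose synthase 2) had 89.5 and 35.9 CPM in air and 233 and 132 CPM under hypoxia. The groups did not overlap, but the air replicates were as far apart as the hypoxia replicates or more, and the log2FC of 1.61 (SE 0.42) had an FDR of 0.15. It was 0.97 without air replicate 3. DN36162_c0_g1 (sucrose synthase 3) had 520 and 580 CPM in air and 557 and 528 CPM under hypoxia, and its log2FC was -0.02 (SE 0.16).

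Neutral invertases, which act in the cytosol and in organelles, mostly lay lower. Of 13 genes with a neutral, alkaline or cytosolic invertase hit, 1 was downregulated, 7 lay lower without overlap and 3 higher, and their summed level was 585 and 629 CPM in air and 362 and 422 CPM under hypoxia. DN34925_c0_g2 (hit AT4G34860) was the downregulated gene, with 29.3 and 32.3 CPM in air and 14.6 and 15.0 CPM under hypoxia (log2FC -1.01, SE 0.12, FDR 0.039). Both of its groups were tight and apart, and its log2FC ran from -1.08 to -0.94 when 1 library was left out. DN28617_c0_g1 and DN28617_c0_g2, which share a Trinity component and may share reads, had log2FC of -1.14 (FDR 0.086) and -1.11 (FDR 0.087), or -0.77 and -0.75 without air replicate 3. The gene at the highest CPM, DN31507_c0_g1 (hit AT3G06500), had 276 and 262 CPM in air and 149 and 197 CPM under hypoxia (log2FC -0.64, FDR 0.14). In contrast DN25480_c0_g1, with an alkaline/neutral invertase hit, had 17.7 and 9.58 CPM in air and 24.5 and 22.9 CPM under hypoxia (log2FC 0.81, FDR 0.21), or 0.40 without air replicate 3 and 1.22 without air replicate 1. Of 25 genes for starch degradation 0 were upregulated, and the lowest FDR was that of alpha-amylase-like 2 (DN34936_c0_g1), with 24 and 26 CPM in air against 51.8 and 43.7 CPM under hypoxia (log2FC 0.90, FDR 0.048, below the fold threshold). The largest change in this list was that of alpha-glucan phosphorylase 2 (DN22396_c0_g1), with 3.40 and 1.29 CPM in air and 5.98 and 6.62 CPM under hypoxia (log2FC 1.2, FDR 0.14, and 0.73 without air replicate 3).

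Within glycolysis, 6 genes with an ATP-dependent phosphofructokinase hit had log2FC from -0.09 to 0.35, and 0 of them changed. The other 57 glycolytic genes had a median log2FC of 0.03, and 0 of them were upregulated or downregulated. Without overlap 20 lay higher and 11 lower (35.1% and 19.3%, where all genes gave 22.5% and 24.4%). The 57 genes summed to 8669 and 8702 CPM in air and 8381 and 9452 CPM under hypoxia. Phosphoglycerate kinase 1 (DN30812_c0_g1, hit AT3G12780) was the exception in size, with 89.4 and 47.7 CPM in air and 161 and 142 CPM under hypoxia (log2FC 1.19, FDR 0.11, and 0.75 without air replicate 3). The hit does not tell whether its product acts in glycolysis or in the chloroplast.

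Fermentation was represented by an ethanol and a lactate branch. Pyruvate decarboxylase, the first step to ethanol, had 1 gene, DN27240_c0_g1 (pyruvate decarboxylase-2), with 81.7 and 107 CPM in air and 82.2 and 101 CPM under hypoxia (log2FC -0.04, SE 0.17). Alcohol dehydrogenase, the second step, had 1 gene, DN33664_c1_g1 (alcohol dehydrogenase 1), with 39.4 and 53.0 CPM in air and 49.9 and 73.6 CPM under hypoxia (log2FC 0.40, SE 0.21, FDR 0.44). Air and hypoxia overlapped for both genes. On the lactate side, 2 genes hit AT4G17260, a member of the lactate/malate dehydrogenase family, which includes the enzyme that reduces pyruvate to lactate. DN31452_c0_g2 had 96.0 and 30.6 CPM in air and 396 and 294 CPM under hypoxia, and DN31452_c0_g1 had 51.6 and 15.3 CPM in air and 225 and 153 CPM under hypoxia. Both hypoxia libraries lay well above both air libraries, yet the log2FC of 2.63 (SE 0.45) and 2.67 (SE 0.48) had FDR of 0.064 and 0.070. The difference between the air replicates entered these errors, and without air replicate 3 the log2FC were 1.82 and 1.83. These 2 genes belong to 1 Trinity component, and how reads were split between them is uncertain. The difference between the branches was not tested.

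**Figure D2:**
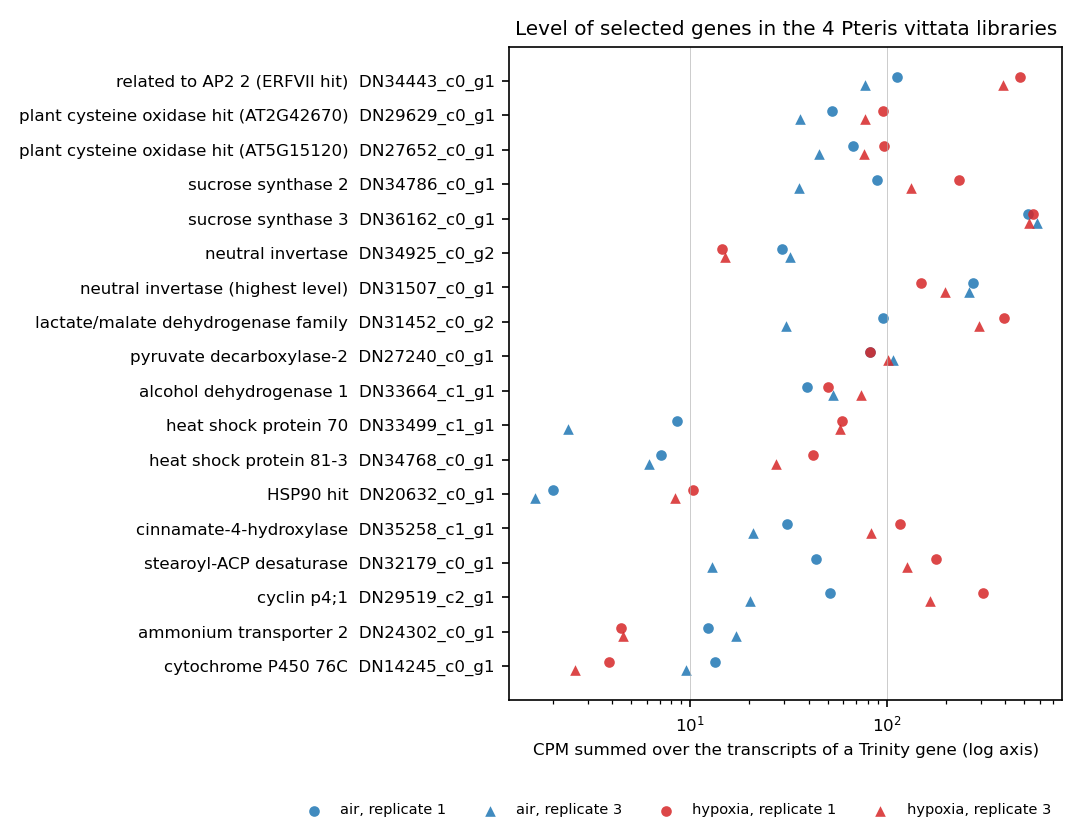
Level in CPM (log axis) of 18 named genes in the 4 libraries, with air in blue, hypoxia in red, circles for replicate 1 and triangles for replicate 3. The gene for related to AP2 2 lies at 77.6 and 113 CPM in air and at 390 and 474 CPM under hypoxia, whereas the points for pyruvate decarboxylase-2 and sucrose synthase 3 overlap.

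Chaperones, which hold and refold damaged proteins, had the most upregulated members by count among the 40 lists, which differ in size. By share, phenylpropanoid entry (4 of 25) and the ERFVII hits (1 of 5) stood higher. The list held 35 genes of the HSP70, HSP90 and HSP100 families and of heat shock transcription factors. Of these, 5 were upregulated (0.301% of all genes were) and 0 downregulated. Without overlap 20 lay higher and 4 lower (57.1% and 11.4%, where all genes gave 22.5% and 24.4%), and the median log2FC was 0.32. DN33499_c1_g1 (heat shock protein 70) had 8.59 and 2.39 CPM in air and 58.8 and 57.6 CPM under hypoxia. It showed the largest log2FC among upregulated genes with a described hit, 3.38 (SE 0.41, FDR 0.042), and 2.63 without air replicate 3. DN20632_c0_g1 (heat shock protein 90.1) had 2.00 and 1.61 CPM in air and 10.4 and 8.40 CPM under hypoxia (log2FC 1.88, SE 0.18, FDR 0.022). DN28973_c0_g1 (heat shock protein 101, a disaggregase) had 12.2 and 8.62 CPM in air and 28.2 and 25.1 CPM under hypoxia (log2FC 1.29, SE 0.17, FDR 0.048). In all 3 genes the groups lay apart. DN17789_c0_g1, a further heat shock protein 70 hit, was upregulated from a low level, with 0.865 and 0.507 CPM in air and 5.44 and 6.62 CPM under hypoxia (log2FC 2.06, FDR 0.021).

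Members of these families did not move as a block. A further heat shock protein 101 gene, DN31806_c0_g1, was among the 10 genes with the highest mean CPM of the fern, with 2814 and 2456 CPM in air and 3574 and 3000 CPM under hypoxia (log2FC 0.32, FDR 0.65). Of the 7 genes that hit heat shock protein 70 (AT3G12580), 2 were upregulated and their log2FC ran from -0.79 to 3.38, with sums of 74.4 and 81.1 CPM in air and 136 and 127 CPM under hypoxia. The HSP70 gene DN31832_c0_g1 (hit AT5G42020) had 62.9 and 64.0 CPM in air and 122 and 121 CPM under hypoxia, a tight difference of 0.92 (SE 0.11, FDR 0.039) just short of the fold threshold. Chloroplast heat shock protein 70-1 (DN35219_c0_g1) had 297 and 316 CPM in air and 225 and 229 CPM under hypoxia (log2FC -0.43, FDR 0.21). Of the 5 heat shock factor A1E and A1D hits, 2 lay more than 1 log2 unit higher without overlap, and DN20559_c0_g1 (A1E) had 3.40 and 2.39 CPM in air and 14.6 and 8.04 CPM under hypoxia (log2FC 1.62, FDR 0.062).

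Outside that list, further chaperone genes, a heat shock factor and an oxidoreductin were also upregulated. They were picked after their values were seen, and related genes that missed the thresholds were not counted. Heat shock factor 1 (DN24633_c0_g3), for instance, had a log2FC of 1.56 and an FDR of 0.098. DN34768_c0_g1, which hits heat shock protein 81-3, an HSP90, had 7.07 and 6.17 CPM in air and 42.2 and 27.3 CPM under hypoxia (log2FC 2.20, SE 0.20, FDR 0.021). Both genes that hit heat-shock protein 70T-2 were upregulated, DN24931_c1_g1 with log2FC 1.65 (FDR 0.039) and DN22339_c0_g1 with 1.69 (FDR 0.035). Chaperonin-60alpha, a folding chamber of plastids, was the hit of 5 genes, of which DN20315_c0_g1 and DN23501_c0_g1 were upregulated, each with a log2FC of 1.13 (FDR 0.048). Heat shock factor 3 (DN26044_c0_g1) had 5.02 and 5.34 CPM in air and 16.7 and 11.8 CPM under hypoxia (log2FC 1.28, FDR 0.050), and endoplasmic reticulum oxidoreductin 1 (DN28823_c0_g1), which drives disulphide formation with oxygen as electron acceptor, had 23.1 and 19.8 CPM against 53.7 and 42.6 CPM (log2FC 1.13, FDR 0.048). All 3 genes that hit AT3G46230, which the tables do not describe, lay more than 1 log2 unit higher, 2 of them upregulated, with sums of 207 and 64.6 CPM in air and 753 and 637 CPM under hypoxia, and a median log2FC of 2.58, or 1.73 without air replicate 3. The list of small heat shock proteins holds 2 genes, of which 0 were upregulated or downregulated (log2FC -0.08 and 0.52). The 3 genes that hit AT3G46230 are not in it, so this list does not stand for all small heat shock proteins.

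In the list for the entry to phenylpropanoid metabolism, which leads to lignin and flavonoids, 4 of 25 genes were upregulated, all with the same hit. Cinnamate-4-hydroxylase (AT2G30490), an oxygen-dependent cytochrome P450 and the second enzyme of the pathway, was the hit of 13 genes, of which 4 were upregulated and 0 downregulated, 6 lay more than 1 log2 unit higher without overlap, and their sum was 1947 and 1932 CPM in air and 3755 and 2955 CPM under hypoxia. DN35258_c1_g1 had 30.9 and 20.8 CPM in air and 116 and 83.2 CPM under hypoxia (log2FC 1.91, SE 0.22, FDR 0.037). DN26656_c0_g1 had 54.0 and 46.1 CPM in air and 153 and 125 CPM under hypoxia (log2FC 1.45, SE 0.14, FDR 0.026). DN25721_c0_g1 and DN23371_c0_g1 had log2FC of 1.44 (FDR 0.031) and 1.17 (FDR 0.044). In each of these 4 genes both hypoxia libraries lay above both air libraries. The 2 genes at the highest CPM among those that moved, DN35258_c3_g2 and DN35258_c3_g1, had log2FC of 1.58 (FDR 0.073) and 1.13 (FDR 0.070).

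Of the other 7 genes with this hit, 3 lay higher without overlap by less than 1 log2 unit, DN32167_c0_g1, DN10650_c0_g1 and DN42130_c0_g1, with log2FC of 0.48, 0.61 and 0.91 (FDR 0.13 to 0.35). The remaining 4 lay near 0. DN36110_c0_g2 had 511 and 671 CPM in air and 606 and 589 CPM under hypoxia (log2FC 0.03), and DN36110_c0_g3, DN35258_c2_g1 and DN35258_c2_g2 had log2FC from -0.02 to 0.05. Several of the 13 share a component, so reads may have been split between near-identical copies and single values are uncertain, whereas the sum does not depend on that split. Phenylalanine ammonia-lyase, the first enzyme, was represented at the highest CPM by DN35681_c0_g2, with 942 and 1322 CPM in air and 1093 and 948 CPM under hypoxia (log2FC -0.13), and 0 of the 12 phenylalanine ammonia-lyase and 4-coumarate:CoA ligase genes changed. The difference between cinnamate-4-hydroxylase and these enzymes was not tested. Chalcone synthase, which opens the flavonoid branch, was the hit of 4 genes with log2FC of 0.81 to 1.11 and FDR of 0.22 to 0.33, or log2FC of 0.30 to 0.52 without air replicate 3. The main one, DN31854_c0_g1, had 1162 and 572 CPM in air and 1494 and 1373 CPM under hypoxia. Air replicate 1 lay close to hypoxia and air replicate 3 far below.

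**Figure D3:**
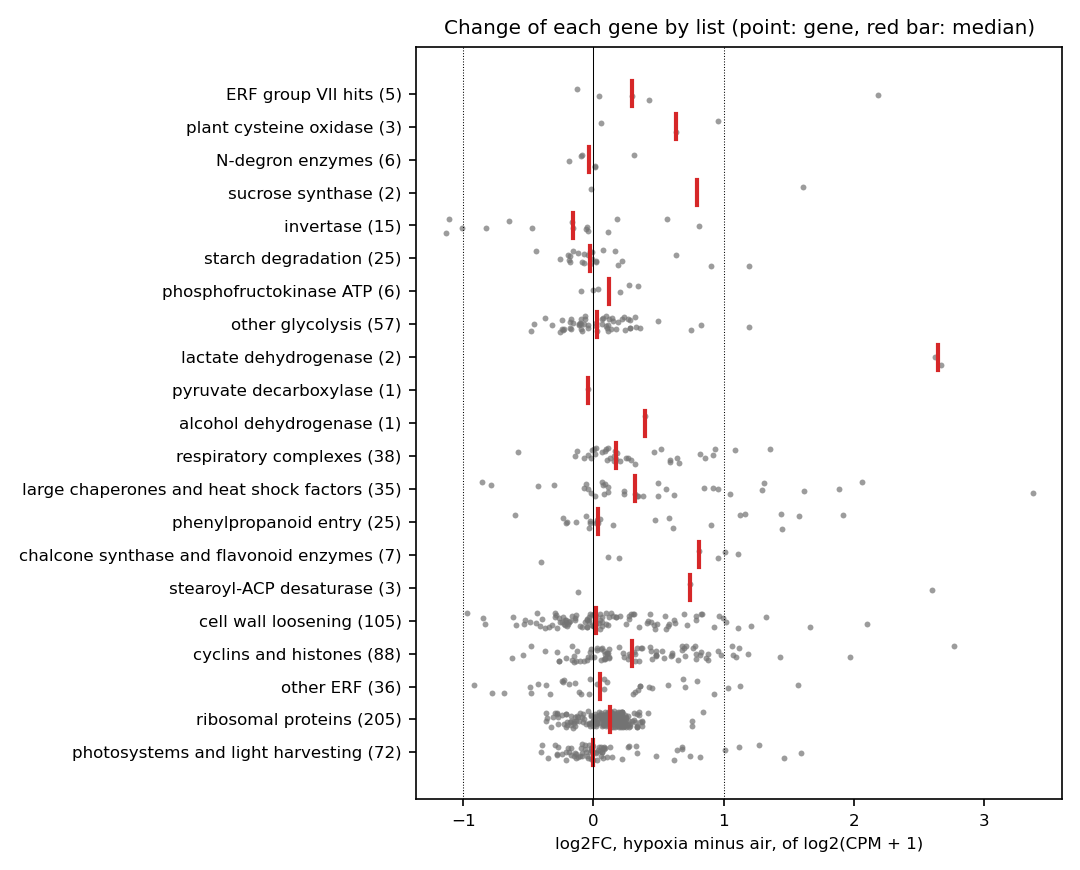
Log2FC (hypoxia minus air, of log2(CPM + 1)) of every gene in 21 of the 40 lists, with the number of genes in parentheses, a grey point per gene and a red bar at the list median. The median is 2.65 for the 2 lactate dehydrogenase genes and 0.32 for the chaperones, and 0.00 for photosystems, while 1 ERFVII gene stands at 2.19 apart from the other 4.

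Stearoyl-ACP desaturase, which needs oxygen to place the first double bond in fatty acids, was the hit of 3 genes, of which 0 were upregulated. DN32179_c0_g1 had 43.8 and 12.9 CPM in air and 178 and 126 CPM under hypoxia (log2FC 2.60, SE 0.47, FDR 0.073), and 1.75 without air replicate 3. DN30929_c0_g1 had 103 and 91.5 CPM in air and 174 and 153 CPM under hypoxia (log2FC 0.74, SE 0.13, FDR 0.068). Both had non-overlapping groups and missed the FDR threshold. Cytochrome P450 51G1, an oxygen-dependent sterol demethylase (DN33719_c0_g1), had 88.9 and 49.5 CPM in air and 259 and 172 CPM under hypoxia (log2FC 1.65, SE 0.29, FDR 0.066, and 1.24 without air replicate 3). In the list of 48 cytochrome P450 genes, which holds this gene but not cinnamate-4-hydroxylase, 0 were upregulated and 1 was downregulated. The downregulated gene, DN14245_c0_g1 (family 76, subfamily C), had 13.3 and 9.53 CPM in air and 3.85 and 2.60 CPM under hypoxia (log2FC -1.55, SE 0.22, FDR 0.048).

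Of 38 genes for complexes I to IV and their assembly, 1 was upregulated, NADH dehydrogenase subunit 7 (DN33977_c0_g2), with 2.23 and 1.75 CPM in air and 6.04 and 7.25 CPM under hypoxia (log2FC 1.35, SE 0.18, FDR 0.048). The highest nuclear-encoded log2FC in that list was 0.32. Over all functions, 31 genes hit the mitochondrial genome, of which 28 had a log2FC above 0, and 20 lay higher and 1 lower without overlap. The median was 0.53, or 0.47 without air replicate 3. Only 12 of the 31 had a mean of at least 5 CPM, with a median of 0.74. The 31 genes summed to 489 and 482 CPM in air and 615 and 652 CPM under hypoxia. The 43 genes that hit the plastid genome had a median of 0.34, or 0.18 without hypoxia replicate 3 and 0.51 without hypoxia replicate 1, while their sum was 4786 and 4839 CPM in air and 3913 and 4863 CPM under hypoxia. The difference between the organelles was not tested, and the 11219 nuclear hits had a median of -0.02. Libraries were enriched for polyadenylated RNA, a selection made for nuclear mRNA. Genes for the alternative oxidase and alternative NAD(P)H dehydrogenases, which bypass the main chain, numbered 5, and 0 changed (log2FC -0.16 to 0.10).

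The 2 lists of growth and cell division leaned higher by their medians, and both medians fell without air replicate 3. The 205 ribosomal protein genes had a median log2FC of 0.13, or 0.00 without air replicate 3, and 0 were upregulated or downregulated. In the list of 88 cyclins and histones 0 were upregulated or downregulated, 48 lay higher and 11 lower without overlap (54.5% and 12.5%, where all genes gave 22.5% and 24.4%), and the median log2FC was 0.29, or 0.15 without air replicate 3. Cyclin P4;1 (DN29519_c2_g1) had 51.2 and 20.1 CPM in air and 307 and 166 CPM under hypoxia (log2FC 2.77, SE 0.43, FDR 0.056). A histone gene, DN30446_c0_g1, had 30.1 and 8.25 CPM in air and 81.5 and 52.7 CPM under hypoxia (log2FC 1.97, SE 0.50, FDR 0.14, and 1.10 without air replicate 3). Of these 88 genes, 8 lay more than 1 log2 unit higher without overlap, against 2 without air replicate 3 and 21 without air replicate 1.

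Among 105 genes for cell wall loosening and pectin enzymes, 1 was upregulated and 0 downregulated, and the median log2FC was 0.02. The upregulated gene was expansin A14 (DN24636_c0_g2), of a family that loosens walls during cell extension, with 5.24 and 3.59 CPM in air and 19.9 and 12.7 CPM under hypoxia (log2FC 1.66, SE 0.24, FDR 0.050). Expansin A15 was the hit of 6 genes, of which 3 lay more than 1 log2 unit higher, and DN35764_c1_g2 had 55.2 and 19.5 CPM in air and 167 and 125 CPM under hypoxia (log2FC 2.10, FDR 0.084, and 1.37 without air replicate 3). A gibberellin-regulated family gene, DN22594_c0_g1, was upregulated, with 27.0 and 16.6 CPM in air and 118 and 69.5 CPM under hypoxia (log2FC 2.05, SE 0.29, FDR 0.048).

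Outside ERFVII, 4 families of transcription factors were listed. Of 36 other ERF genes 2 were upregulated, ethylene responsive element binding factor 4 (DN28085_c0_g1, log2FC 1.13, FDR 0.048), a repressor in *Arabidopsis*, and DN22985_c0_g1 (hit AT5G21960), with 3.78 and 3.64 CPM in air and 16.4 and 10.2 CPM under hypoxia (log2FC 1.57, FDR 0.048). Of 31 MYB, 28 WRKY and 16 NAC genes 0 changed, although the NAC gene DN36336_c0_g1 had 14.6 and 30.3 CPM in air and 8.75 and 10.3 CPM under hypoxia (log2FC -1.07, FDR 0.17, and -0.57 without air replicate 3). Auxin response factor 16 (DN25747_c0_g1), which acts in auxin signalling, had 6.59 and 5.81 CPM in air and 14.5 and 14.8 CPM under hypoxia, and was upregulated (log2FC 1.12, SE 0.14, FDR 0.044).

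Among upregulated genes of other functions, DN21083_c0_g1 hit 1-cysteine peroxiredoxin 1, an antioxidant enzyme known from seeds, with 0.378 and 0.276 CPM in air and 7.21 and 4.08 CPM under hypoxia. Its libraries were near 0 in air and clearly above it under hypoxia (log2FC 2.28, SE 0.25, FDR 0.035). An aluminium activated malate transporter hit, DN21101_c0_g1, had 0.756 and 1.15 CPM in air and 5.50 and 4.79 CPM under hypoxia (log2FC 1.66, FDR 0.036). DN32519_c0_g1, of the polyketide cyclase family, had 35.0 and 26.2 CPM in air and 119 and 77.7 CPM under hypoxia (log2FC 1.64, FDR 0.048). A GRAM domain gene (DN15220_c0_g1), an AGC kinase (DN28961_c0_g1), a Rossmann-fold protein (DN27389_c0_g1) and a RING/U-box protein (DN30584_c0_g1) were also upregulated, with log2FC of 1.67, 1.28, 1.22 and 1.09.

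The 5 downregulated genes with a described hit included the neutral invertase and the P450 gene above. Ammonium transporter 2 (DN24302_c0_g1), which takes up ammonium, had 12.3 and 17 CPM in air and 4.44 and 4.55 CPM under hypoxia (log2FC -1.49, SE 0.18, FDR 0.041). Dicarboxylate carrier 2 (DN27376_c0_g3), a mitochondrial carrier, had 25.2 and 24.5 CPM in air and 10.9 and 12.1 CPM under hypoxia (log2FC -1.05, SE 0.12, FDR 0.039). A tetratricopeptide repeat protein (DN30068_c0_g1, hit AT3G51280) had 13.7 and 14.2 CPM in air and 5.51 and 4.92 CPM under hypoxia (log2FC -1.27, SE 0.14, FDR 0.035). Air replicates agreed closely in the last 2 of these genes, and the hypoxia replicates lay below them in all 3.

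Most upregulated and downregulated genes had no hit. The largest log2FC among upregulated genes was 3.58 in DN23872_c0_g1, with 1.24 and 0.783 CPM in air and 28.7 and 18.3 CPM under hypoxia (FDR 0.010). DN25442_c0_g1 had 6.49 and 4.48 CPM in air and 46.4 and 35.1 CPM under hypoxia (log2FC 2.69, FDR 0.010). Of the downregulated ones, DN27930_c0_g1 had 19.1 and 17.7 CPM in air and 4.32 and 4.02 CPM under hypoxia (log2FC -1.91, FDR 0.010), and DN25201_c0_g1 had 43.8 and 44.3 CPM against 13.4 and 12.4 CPM (log2FC -1.69, FDR 0.010). In these 4 genes the replicates of each group lay close together and the groups far apart.

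The gene at the highest mean CPM among those more than 1 log2 unit higher was DN36397_c2_g2, which hits an alpha/beta-hydrolase (AT5G36210), with 1578 and 1005 CPM in air and 4695 and 5022 CPM under hypoxia (log2FC 1.95, SE 0.31, FDR 0.056). Of the 4 other genes of its Trinity component, which have no hit, 3 had log2FC of 1.64, 1.64 and 1.74 with FDR of 0.051 to 0.062, and the last, at 3.79 to 5.24 CPM, had -0.24. Since these 5 genes were assembled from 1 component, they are not independent.

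Most single transcripts that lay apart by more than 1 log2 unit belonged to genes whose sum did not. Limma on single transcripts called 0 in either direction at an FDR of 0.05. Of 73725 transcripts, 1828 higher and 1100 lower ones without overlap and beyond 1 log2 unit lay in genes with several transcripts. Of these, 643 (35.2%) and 39 (3.55%) lay in a gene that did the same. The transcripts were picked for size, 0 passed the test, and each gene sum contains its own transcripts. These shares therefore describe the counts and do not show that real changes were removed. In 54 of the 14413 genes with several transcripts, 1 transcript of at least 5 CPM lay higher and another lower by more than 1 log2 unit without overlap. The sum of 50 of these genes differed by less than 0.5 log2 units. Choosing genes with opposing transcripts favours this, since opposing changes partly cancel in a sum. Glutamate-ammonia ligase (DN36105_c0_g1, hit AT3G53180) is 1 of these genes, with 17 transcripts and sums of 250 and 325 CPM in air and 254 and 255 CPM under hypoxia. Its transcript 16 had 0.291 and 1.33 CPM in air and 19.3 and 14.3 CPM under hypoxia, and its transcript 7 had 16.8 and 14.3 CPM in air and 3.42 and 5.84 CPM under hypoxia. In catalase 1 (DN33000_c0_g2), which splits hydrogen peroxide, the main transcript held 69.3% and 71.3% of the gene in air and 68.7% and 68.6% under hypoxia.

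Transcripts and gene sum went the same way in sucrose synthase 2, whereas in sucrose synthase 3 they did not. Of the 7 transcripts of sucrose synthase 2 (DN34786_c0_g1), 6 lay higher without overlap, and the log2FC of all 7 ran from 1.00 to 3.03. Its transcript 2 had 1.67 and 1.87 CPM in air and 23.9 and 19.5 CPM under hypoxia, and made up 1.87% and 5.22% of the gene in air and 10.3% and 14.7% under hypoxia. Of the 15 transcripts of sucrose synthase 3 (DN36162_c0_g1), 6 lay higher and 3 lower. The 3 higher by more than 1 log2 unit were minor, the largest holding 0.962% and 0.402% of the gene in air and 4.99% and 2.22% under hypoxia, and the gene sum stayed level. Kallisto splits reads between transcripts that share sequence, so the level of a single transcript is less certain than that of the gene.

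**Figure D4:**
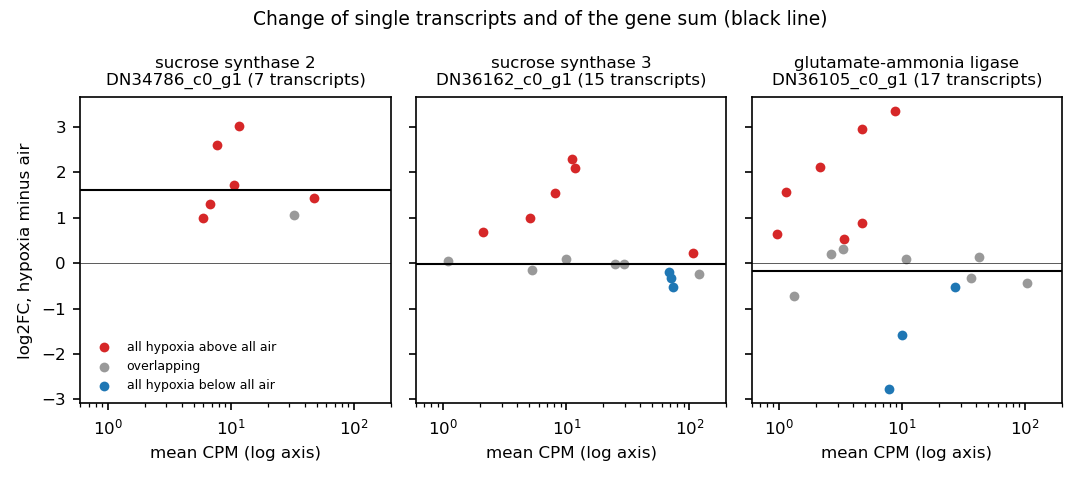
Log2FC (hypoxia minus air) of each transcript against its mean CPM (log axis) in 3 genes, with red for transcripts whose hypoxia libraries both lay above both air libraries, blue for the opposite, grey for overlap and a black line for the gene sum. In sucrose synthase 3 and glutamate-ammonia ligase, red and blue transcripts lie on both sides of a gene sum of -0.02 and -0.16.

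The size of change in the named genes when 1 library was left out shows where air replicate 3 mattered. For the ERFVII gene DN34443_c0_g1 the log2FC stayed between 1.92 and 2.46, and for heat shock protein 90.1 (DN20632_c0_g1) between 1.75 and 2.02. For the lactate/malate dehydrogenase gene DN31452_c0_g2 it ran from 1.82 to 3.44, for cyclin P4;1 (DN29519_c2_g1) from 2.12 to 3.43 and for sucrose synthase 2 (DN34786_c0_g1) from 0.97 to 2.26. In each of these 3 genes the lowest value was the one without air replicate 3 and the highest the one without air replicate 1.

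**Figure D5:**
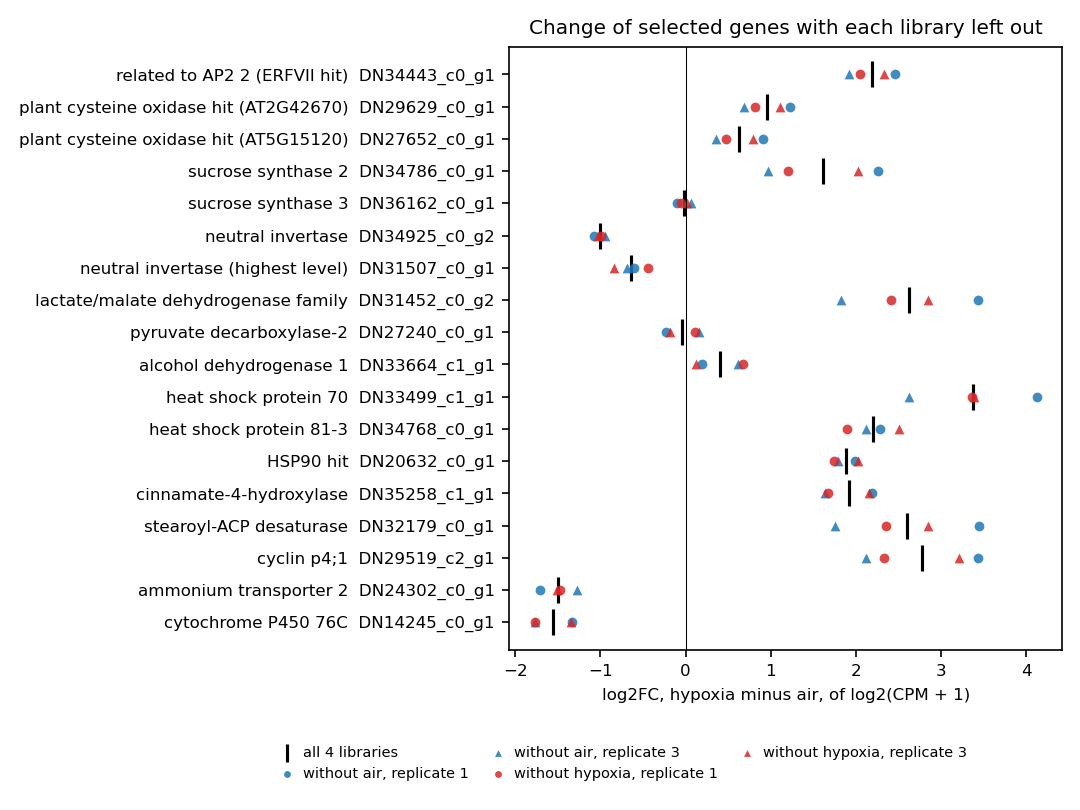
Log2FC (hypoxia minus air, of log2(CPM + 1)) of 18 named genes with all 4 libraries (black bar) and with each library left out (blue for an air library, red for a hypoxia library, circles for replicate 1, triangles for replicate 3). Leaving out air replicate 3 lowers the lactate/malate dehydrogenase gene from 2.63 to 1.82, whereas the values of the neutral invertase DN34925_c0_g2 lie close together.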

How the data were processed

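Poly(A)-enriched mRNA of 4 *P. vittata* libraries was analysed. The authors trimmed reads, assembled transcripts with Trinity, quantified them with Kallisto, removed loci with few reads and scaled by TMM factors in edgeR (versions not given in the sources used here). They deposited log2 CPM values per transcript and library, where minus infinity stands for 0, with the best *Arabidopsis* hit and its E-value, a score that was used only to keep hits of 1e-05 or less. Columns with the authors' own fold changes and adjusted p-values were not used. All descriptions of hits were taken from the other species' tables, by the same hit.

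Values were turned into CPM and summed per Trinity gene. Of low gene values, 89.4 to 90.3% per library were whole reads within 0.1 read, and the depth was taken from that step. Limma 3.58.1 in R 4.3.3 (lmFit, eBayes with trend) compared log2(CPM + 1), with Benjamini-Hochberg adjustment over all 36196 genes and no filter. The replicates are separate sets of shoots. Limma set each difference against a variance that combines the spread between replicates with a prior from genes of similar level (5.26 degrees of freedom).

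Members and the 40 gene lists, defined by the description or the identifier of the hit, were chosen with earlier results of these data known. Named genes were the 10 described genes per direction with the smallest p (5 CPM or more, non-overlapping, beyond 1 log2 unit), the members with the highest level and largest change in each list, all members at 5 CPM or more of the oxygen-sensing, sucrose synthase and ethanol lists, the 10 genes of highest CPM and genes with opposing transcripts. Other genes named were chosen after their values were seen: those of FDR 0.05 or less, repeated hits and members that show how a list varies. Alternatives changed scaling, pseudocount, filter, prior, feature level and libraries, and some were added after seeing the data: the filter at 5 CPM, voom on recovered reads, and the counts at an FDR of 0.05.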

Additional observations from a re-analysis of the deposited data

How the results depend on the processing

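Upregulated and downregulated genes at an FDR of 0.01 numbered 6 and 2 (limma). They were 7 and 2 with library totals or median-ratio factors, 13 and 2 with a robust prior, 3 and 2 for sums over components, and 109 and 19 at an FDR of 0.05. They were 0 and 0 with a pseudocount of 0.1 or 5, a minimum mean of 1 or 5 CPM, no variance trend, single transcripts or voom on recovered reads, where 526 and 64 genes beyond 1 log2 unit had an unadjusted p under 0.05 in the analysis as reported. Leaving out 1 library gave 0 and 0 each time.

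At an FDR of 0.05 the 109 and 19 became 142 and 28 with library totals, 181 and 22 with median-ratio factors, 31 and 6 with a pseudocount of 0.1, 66 and 7 with a pseudocount of 5, 54 and 12 with a mean of at least 1 CPM, 5 and 2 with a mean of at least 5 CPM, 11 and 2 with no variance trend, 193 and 28 with a robust prior, 120 and 24 with no minimum fold change, 38 and 8 for components, 0 and 0 for single transcripts and 49 and 11 with voom. Leaving out 1 library gave 0 to 61 and 0 to 8 genes, with 0 and 0 without either air library, 2 and 0 without hypoxia replicate 1 and 61 and 8 without hypoxia replicate 3, and all 109 and 19 genes kept their sign.

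Higher and lower genes without overlap, 525 and 66, became 1109 and 400 with a pseudocount of 0.1, 217 and 16 with 5, 8150 and 8841 with no minimum fold change, 2086 and 1138 for single transcripts, 1239 and 525 with voom, and 330 and 43 with a mean of at least 5 CPM. Leaving out 1 library gave 345 (without air replicate 3) to 916 (without air replicate 1) and 58 to 192. Of the 44 named genes beyond 1 log2 unit, 0 changed sign under the 16 alternatives. Since these genes were picked for a large log2FC in the same data, this outcome was largely fixed and does not show robustness. Several alternatives, such as a robust prior or no minimum fold change, leave the log2FC unchanged. For genes whose groups do not overlap, leaving out 1 library cannot reverse the sign. The kept sign of the upregulated and downregulated genes is limited likewise, since they were called on a large log2FC and a small spread. The causes of the differences in counts were not tested.

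Replicate numbers 1 and 3 occur in both groups. Fitted as a replicate block they gave 236 and 16 genes at an FDR of 0.01 and 473 and 50 at 0.05, all 109 and 19 among them. Over 18286 genes the deviations of same-numbered libraries correlated at 0.13, with 2 pairs only. In most of the 525 higher genes replicate 1 exceeded replicate 3 in both groups, but the labels do not tie the libraries, so the numbers were not taken as pairs. With 2 libraries per group, the number of calls moved with the pseudocount, the filter and the variance model. Since 1 read was worth 0.0461 to 0.0592 CPM, values below 1 CPM rested on few reads.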

Other observations

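Genes outside the lists of the report also lay more than 1 log2 unit higher without overlap, chosen here after their values were seen. Isocitrate lyase, the first enzyme of the glyoxylate cycle that turns stored lipid into sugar, was the hit of 4 genes, 2 of which lay higher. DN26830_c0_g1 had 7.40 and 1.38 CPM in air and 12.7 and 34.7 CPM under hypoxia (log2FC 2.30, limma FDR 0.16, and 1.39 without air replicate 3). DN17460_c0_g1 had 3.46 and 0.507 CPM against 3.85 and 15.9 CPM (log2FC 1.80, FDR 0.28), and its log2FC was 1.02 without air replicate 3 and 0.90 without hypoxia replicate 3. Hypoxia replicate 1 lay near air replicate 1 in the latter gene. A gene with the hit AT3G14440, DN13504_c0_g1, had 5.08 and 1.16 CPM in air and 25.8 and 13.2 CPM under hypoxia (log2FC 2.43, FDR 0.087, and 1.68 without air replicate 3). In all 3 genes air replicate 3 was the lowest library. Both genes that hit the jumonji domain protein AT1G11950 lay higher, with a median log2FC of 1.16, or 0.70 without air replicate 3.

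All 3 genes that hit chlorophyll A/B-binding protein 2 (AT1G29920), a light-harvesting protein, lay higher, with a median log2FC of 1.46, or 0.68 without air replicate 3, while the 72 photosystem and light-harvesting genes had a median of 0.00. Of these 72 genes, 5 lay more than 1 log2 unit higher without overlap, against 1 without air replicate 3 and 8 without air replicate 1. DN17508_c0_g1 had 8.48 and 4.24 CPM in air and 17.9 and 22.9 CPM under hypoxia (log2FC 1.59, FDR 0.064), or 1.16 without air replicate 3.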
